A study of Homo sapiens with 8 samples.

Results

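The metallothionein genes lie together on chromosome 16, and the peaks described here are those that 8 ChIP-seq libraries of T47D breast cancer cells gave in the stretch chr16:56540000-56770000 of the hg19 build, which is the gene cluster with 50 kb on either side. The stretch is defined by position alone, and it was picked with earlier results of these data known. It held 13 of the 93493 peaks used from all lists (94404 were deposited). Of these 13, 1 was a peak of the glucocorticoid receptor (GR) after dexamethasone, 5 were peaks of the progesterone receptor (PR) after R5020 in A1-2 cells and 7 were PR peaks after R5020 in MTVL WT cells. The other 5 lists held 0.

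T47D is an established line from a human breast carcinoma. T47D A1/2 (A1-2) is a derivative that has both receptors according to the series text, and T47D MTVL WT (MTVL) is the line marked as the control. GR was precipitated with a mix of a pair of antibodies from A1-2 cells that had received no hormone, 10 nM dexamethasone (Dex, a synthetic glucocorticoid) or 10 nM R5020 (a synthetic progestin) for 60 min. PR was precipitated with 1 antibody from A1-2 cells and from MTVL cells, without hormone or after 10 nM R5020 for 60 min, and an input library of A1-2 DNA had no antibody. All cells had first been kept in charcoal-stripped serum and then starved of serum. GR in MTVL cells and PR after Dex are not analysed here. Each condition was 1 library of 1 derived line, and conditions were therefore compared without replicates or p-values. The read depth was unknown. The lists after hormone differed in length, with 18415 GR Dex, 1185 GR R5020, 28262 A1-2 PR and 43070 MTVL PR peaks used, and a site without a called peak may lie under the threshold of its list.

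Metallothioneins are small cysteine-rich proteins that bind zinc, copper and cadmium, buffer zinc inside the cell and take up reactive oxygen. Metals induce their genes through the transcription factor MTF1, which binds short metal response elements near the gene starts. MT2A is also a classic steroid target: its upstream region was among the first in which a glucocorticoid response element was mapped, and GR and PR recognise the same palindromic element. All 10 members were found in the RefSeq gene table, in the order MT4, MT3, MT2A, MT1E, MT1M, MT1A, MT1F, MT1G, MT1H and MT1X along the chromosome. MT2A is the most widely expressed member, MT3 is known from the brain, and MT4 is known from stratified squamous epithelia. The table counts 16 genes of the family in the cluster, 11 coding and 5 pseudogenes. These are close copies of each other, and how the authors treated reads that match several places is not given in the sources used here. The table is of the GRCh38 build, so only MT2A, whose hg19 position (chr16:56642478-56643409) came with the definition of the stretch, was placed against the peaks. The other members are given by their order alone.

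The 13 peaks made 7 distinct sites when peaks that overlapped by at least 1 bp were merged. Of these sites, 5 lay within 8.23 kb of the MT2A start, and the others lay 49.4 and 73.7 kb downstream of it, on the side of the MT1 genes. At 4 sites PR was called in both lines and GR was not, at 1 site PR was called in both lines together with GR after Dex, and at 2 sites PR was called in MTVL cells only. Over the whole genome, where GR Dex and the PR R5020 lists of both lines merged into 51444 regions, the shares of these classes were 22.4%, 22.4% and 36.5%. No site fell in any other class, such as GR alone or PR of A1-2 cells alone; all other classes together made up 18.7% of the merged regions, so a count of 0 among 7 sites says little. Upstream, on the side of MT3 and MT4, the first 94.3 kb of the stretch held no peak of any list.

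**Figure D1:**
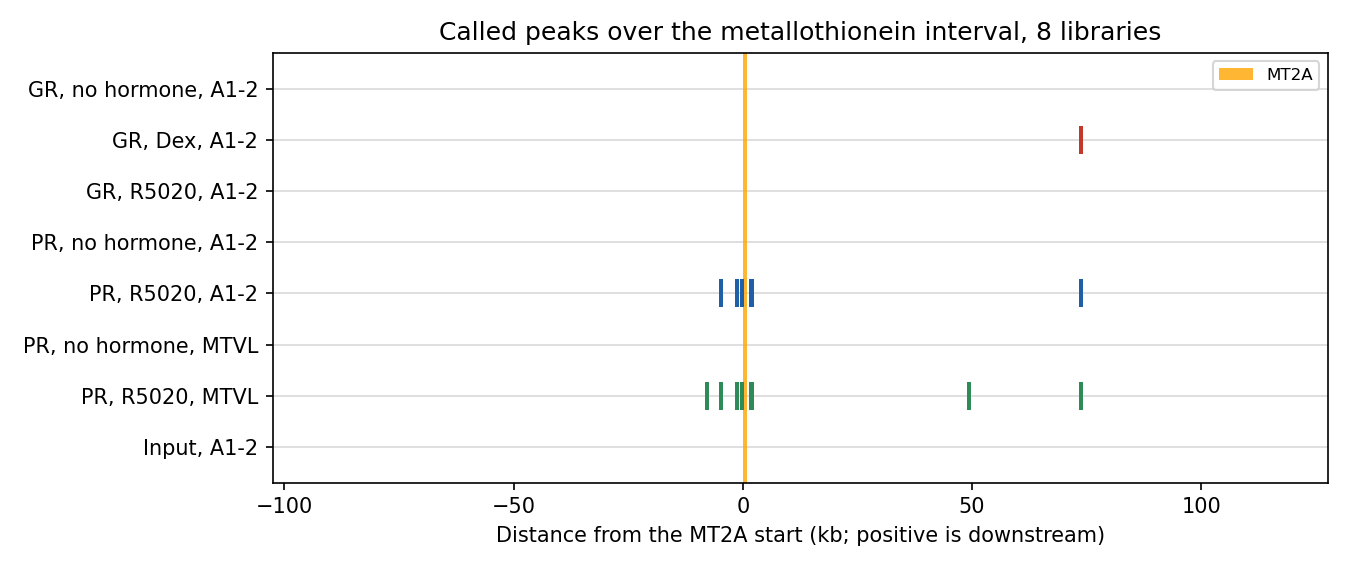
Called peaks of the 8 libraries (rows) against the distance from the MT2A start in kb (horizontal axis), with MT2A in orange; peaks are drawn at least 0.9 kb wide so that they can be seen. Marks are present in 3 rows only: PR after R5020 in A1-2 and in MTVL cells gather at MT2A, and the GR mark after Dex stands alone 73.7 kb downstream with a PR mark of each line.

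The number of peaks in the stretch was read against tiles of the same length (230001 bp) laid over chromosomes 1 to 22 and X. All tiles up to the last peak of a chromosome were counted. Any in which reads could not be placed were not taken out, and such tiles lower the shares given here. At least 1 peak was present in 50.5% of the 13197 tiles for GR after Dex, in 62.0% for PR in A1-2 cells and in 74.1% for PR in MTVL cells after R5020. Tiles with 5 or more A1-2 PR peaks made up 15.4%, and tiles with 7 or more MTVL PR peaks 15.6%, so the metallothionein stretch was among the denser ones for PR in each line without being rare. An empty stretch was the usual case in the other lists. Peaks of untreated cells were in 1.27% (GR, A1-2), 1.99% (PR, A1-2) and 1.48% (PR, MTVL) of tiles. GR peaks after R5020 were in 4.43% and input peaks in 7.65%. The nearest PR peak of untreated A1-2 cells was 691 kb from the MT2A start, and the nearest GR peak after R5020 was 2830 kb away.

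At the MT2A start itself PR was called in both lines after R5020. In A1-2 cells this peak covered chr16:56641862-56642590, from 616 bp upstream of the start to 112 bp into the gene, with a score of 338.51. In MTVL cells it covered chr16:56641836-56642619, from 642 bp upstream to 141 bp into the gene, with a score of 349.29. This score comes from the authors' peak caller, is deposited for every peak and is read here as -10 times the log10 of its p, so that it ranks peaks within a list but does not compare libraries. The peak scored higher than 61.8% of the A1-2 list and 53.5% of the MTVL list, so this promoter was a site of middle rank in each. Its midpoints in the lines were 1.5 bp apart. Neither GR list after hormone had a peak here: the nearest GR Dex peak began 73.3 kb downstream of the start.

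The 250 bases before the start of MT2A are shown because this is the only member with an hg19 position here, and its start lies under a peak. Those of MT1H and MT1X are set beside them because they held the most metal response element cores among the other family windows searched. The sequences come from RefSeq, in another build than the peaks, and the start used there may differ by some bases from that of the hg19 entry. Capitals mark cores of the metal response element, searched on both strands as TGCACNC and TGCGCNC. No core overlapped a steroid element, since none of those was found in these windows.
MT2A, GRCh38.p14 chr16:56608334-56608583, + strand: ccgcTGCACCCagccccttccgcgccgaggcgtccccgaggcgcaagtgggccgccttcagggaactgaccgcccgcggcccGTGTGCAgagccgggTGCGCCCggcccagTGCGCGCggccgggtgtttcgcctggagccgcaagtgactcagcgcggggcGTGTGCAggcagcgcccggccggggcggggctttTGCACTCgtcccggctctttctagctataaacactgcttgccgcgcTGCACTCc
MT1H, GRCh38.p14 chr16:56669564-56669813, + strand: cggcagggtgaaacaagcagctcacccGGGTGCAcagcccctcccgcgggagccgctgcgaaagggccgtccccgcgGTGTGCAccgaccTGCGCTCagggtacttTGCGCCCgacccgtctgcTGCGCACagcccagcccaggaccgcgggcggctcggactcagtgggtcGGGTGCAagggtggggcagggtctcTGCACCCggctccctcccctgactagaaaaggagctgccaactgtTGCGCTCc
MT1X, GRCh38.p14 chr16:56682220-56682469, + strand: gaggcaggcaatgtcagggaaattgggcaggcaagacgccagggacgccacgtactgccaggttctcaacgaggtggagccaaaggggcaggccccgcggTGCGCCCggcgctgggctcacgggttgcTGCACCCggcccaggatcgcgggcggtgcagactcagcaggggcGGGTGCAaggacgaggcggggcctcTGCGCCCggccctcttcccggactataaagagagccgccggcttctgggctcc

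MT2A had 7 such cores, MT1H 8 and MT1X 4. MT4 and MT1B, which are not printed, had 3 each. MT1B is a coding gene of the family that is not among the listed members. Of the 35116 promoters of the table, 24.8% held at least 1 core, 1.58% at least 3, 0.37% at least 4, 0.0313% at least 7 and 0.0171% at least 8. The promoters of MT2A, MT1H and MT1X were GC-rich (73.2%, 70.4% and 70.0%, against a median of 58.0% over the table), and the part of base composition in these counts was not tested. A core stood at nearly the same place in all 3, at positions -54 to -48 in MT2A and -53 to -47 in MT1H and MT1X, counted from the base before the start as -1. MT1B also had a core at -53 to -47. MT4 had none near there, and its cores began at -209, -196 and -90. MT1H and MT1X also shared one at -78 to -72. The palindromic steroid receptor element (GNACA, then 3 bases, then TGTNC) matched in none of the 4 members' windows, and neither did the hexamer TGTTCT. Over all promoters 0.327% held the element and 12.4% the hexamer. No match says only that these letters are not in the window. The MT2A peaks reached 616 and 642 bp upstream, beyond the bases shown, and the bases there were not searched. The search therefore does not bear on the glucocorticoid response element mapped upstream of MT2A if that lies farther out than the window. The windows of MT1E, MT1M, MT1A, MT1F, MT1G and MT3 are not in the table. Of 8 other genes of metal and redox balance, 6 had a window, and 3 of these held a core: SLC30A1, the zinc exporter at the cell surface, and SLC39A6, a zinc importer, had 1 each, and GCLC, a subunit of the enzyme that starts glutathione synthesis, had 2. MTF1, SLC30A10 and SLC39A10 had 0.

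Beyond the MT2A promoter, PR peaks stood on both sides of the gene. The site nearest to the promoter lay upstream, at chr16:56640889-56641551 in A1-2 cells with a score of 159.76, and at chr16:56640831-56641630 in MTVL cells with a score of 698.32. Its midpoint was 1.26 kb from the start in A1-2 cells and 1.25 kb in MTVL cells, and the gap to the promoter site was 310 bp and 205 bp. It ranked above 30.4% of the A1-2 list and above 72.0% of the MTVL list.

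Downstream of the gene, a PR peak began 545 bp past the end of MT2A in A1-2 cells, at chr16:56643954-56644780 with a score of 366.19. The MTVL peak there, at chr16:56643913-56644846, began 504 bp past the gene's end and scored 1245.89. It was the strongest of the sites around MT2A in each line, above 64.3% of the A1-2 list and 83.3% of the MTVL list. Thus in both lines the peak beyond the gene's end, and not the one over its start, was the higher of the pair. In A1-2 cells the 2 were close, with scores of 366.19 and 338.51, and each line is 1 library.

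Farther upstream, the site 4.71 kb before the start lay at chr16:56637499-56638028 in A1-2 cells with a score of 128.79, the lowest of the stretch in that list. In MTVL cells it lay at chr16:56637473-56638053 with a score of 230.89. The outermost site, 7.91 kb before the start at chr16:56634251-56634894, was called in MTVL cells only, with a score of 264.62. That score was above 44.3% of the MTVL list, and of the MTVL peaks in the same decile of the list's score 44.6% had an A1-2 peak, so a missing A1-2 peak at this rank was common.

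**Figure D2:**
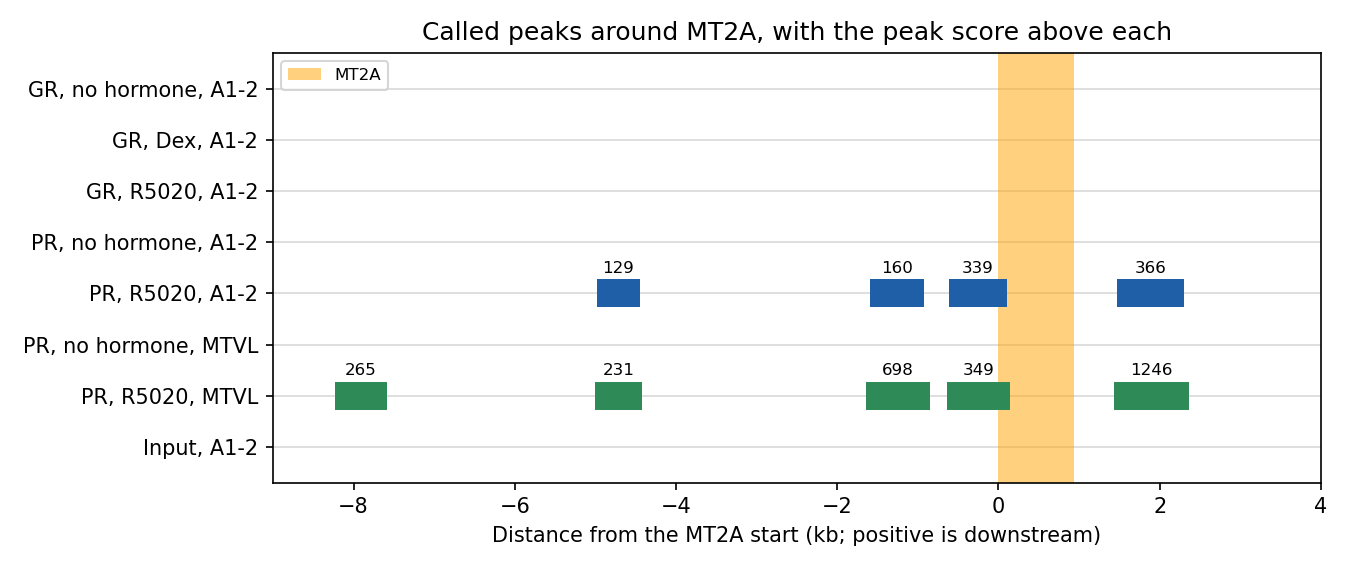
The same rows enlarged around MT2A (orange), drawn to scale in kb from its start, with the rounded peak score above each peak. A1-2 cells have 4 PR peaks and MTVL cells 5, each A1-2 peak lies over an MTVL peak, and no row of GR, untreated cells or input has a mark.

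The order of scores around MT2A was not the same in the lines. In A1-2 cells the site past the gene's end came first (366.19), then the promoter (338.51), the site at 1.26 kb (159.76) and the site at 4.71 kb (128.79). In MTVL cells the site past the gene's end (1245.89) was again first, but the site at 1.25 kb (698.32) came before the promoter (349.29), followed by the outermost site (264.62) and the site at 4.71 kb (230.89). Each line is 1 library, so the exchange of the promoter and its upstream neighbour has no replicate check. Positions agreed closely. At the 4 sites of both lines around MT2A the midpoints differed by 0.5 to 12.5 bp, and the narrower peak, of A1-2 cells each time, lay wholly inside the other.

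Around MT2A the PR peaks formed a run. In A1-2 cells 4 peaks stood within 7.28 kb, with gaps of 310 to 2860 bp, and covered 37.8% of that length. In MTVL cells 5 stood within 10.6 kb, with gaps of 205 to 2777 bp, and covered 35.3%. Of all PR peaks, 6.94% in A1-2 cells and 7.3% in MTVL cells belonged to runs of 4 or more peaks whose gaps did not exceed 5 kb, a definition set after the peaks around MT2A had been seen. In MTVL cells 3.73% belonged to runs of 5 or more, as the peaks around MT2A did. Counted as runs, with lone peaks included, 372 of 22325 in A1-2 cells (1.67%) had 4 or more peaks, and 272 of 33375 in MTVL cells (0.815%) had 5 or more. The longest had 25 and 16 peaks.

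The site shared by GR after Dex and by PR after R5020 in both lines was 73.7 kb downstream of the MT2A start. It ended about 3.43 kb inside the downstream limit set for the cluster, chr16:56720000, a rounded position and not a measured gene end. MT1X is the last member on that side. Whether the site lies at the start of MT1X or of another gene was not computed, since the gene table is of another build. GR after Dex had its peak at chr16:56715769-56716563 with a score of 400.15, PR in A1-2 cells at chr16:56715755-56716564 with 929.05, and PR in MTVL cells at chr16:56715784-56716573 with 1362.72. It was the highest-scoring site of the stretch in each of these lists. It stood above 78.7% of the GR Dex list, 85.2% of the A1-2 PR list and 84.9% of the MTVL PR list. The GR and PR peaks of A1-2 cells had midpoints 6.5 bp apart, and the whole GR peak lay inside the PR peak. No GR peak was called here after R5020, as at most PR sites: of all A1-2 PR peaks 2.08% overlapped one of the 1185 GR R5020 peaks.

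The remaining site, 49.4 kb downstream at chr16:56691332-56692349, was called for PR in MTVL cells only. Its score of 187.62 was the lowest of the MTVL peaks in the stretch, above 30.8% of the list. In that decile of the MTVL list 36.7% of peaks had an A1-2 counterpart. At 1018 bp it was the widest of the 13 peaks, whose narrowest was 530 bp.

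**Figure D3:**
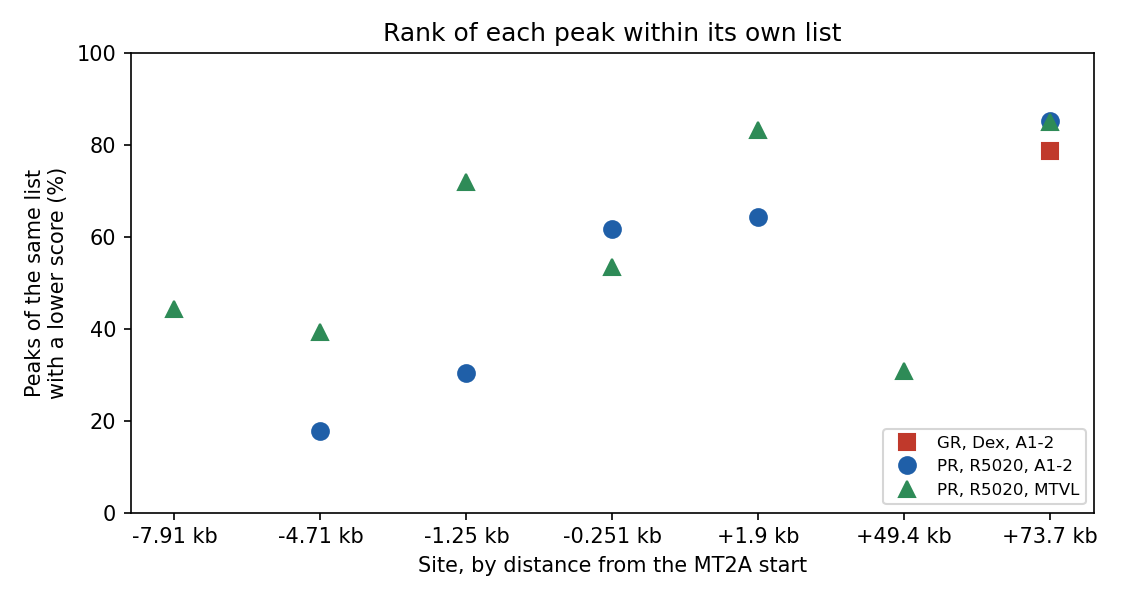
Share of the peaks in the same list that score lower (vertical axis, %) for each peak of the stretch, by site (horizontal axis, distance of the site from the MT2A start in kb). The site at 73.7 kb is the highest of each list; since the lists differ in length, heights are read within a colour and not across colours.

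How PR in A1-2 and in MTVL cells shared sites was compared with the sharing over the whole lists. All 5 of the A1-2 PR peaks in the stretch overlapped an MTVL PR peak (95% interval 47.8% to 100%, exact Clopper-Pearson), against 82.7% of the whole A1-2 list. Of the 7 MTVL PR peaks, 5 overlapped an A1-2 peak (71.4%, 29.0% to 96.3%), against 53.8% of the whole list. Both whole-list shares lay inside these intervals, which cover counting error only. The intervals treat peaks as independent, although most of these peaks stood in the run around MT2A. At 5 and 7 peaks they are too wide to decide whether the metallothionein sites differed from other sites in this respect. Chromosome 16 as a whole held 6.23% of the GR Dex list, 5.21% of the A1-2 PR list and 2.9% of the MTVL PR list. The tile shares are over all chromosomes used and do not allow for these differences, and copy number was not analysed here.

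Whether GR after Dex took the PR sites of the cluster was read in the same way. Of the 5 A1-2 PR peaks 1 lay at a GR Dex peak (20.0%, 0.505% to 71.6%), against 48.2% of the whole list, and of the 7 MTVL PR peaks 1 did (14.3%, 0.361% to 57.9%), against 29.5%. These intervals too include the whole-list shares, and with so few peaks they cannot decide whether the shares differed. The single GR Dex peak of the stretch lay at PR peaks of both lines, as did 73.8% of GR Dex peaks for A1-2 PR and 69.3% for MTVL PR.

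Since GR Dex peaks accompany high-scoring PR peaks more often, each PR peak was also set beside the decile of its own list to which its score belonged. In A1-2 cells the share with a GR Dex peak was 22.3% in the decile of the site at 4.71 kb and 32.0% in that of the site at 1.26 kb. It was 55.6% in the decile that held both the promoter site and the site past the gene's end, and 80.0% in that of the site at 73.7 kb, the only one with a GR peak. In MTVL cells the decile of the site past the gene's end and of the site at 73.7 kb had GR Dex peaks at 50.5%, that of the promoter at 24.2%, and that of the site 1.25 kb upstream at 37.3%. The outermost site was in a decile with 19.6%, and the sites at 4.71 kb and 49.4 kb were in one with 17.3%. In A1-2 cells, most PR peaks ranked like the sites at 4.71 kb and 1.26 kb therefore lacked a GR Dex peak. Most of those ranked like the promoter site and the site past the gene's end had one. In MTVL cells the share was about even at the rank of the site past the gene's end. At the ranks of the other MTVL sites around MT2A most peaks lacked one. Why GR was not called around MT2A was not tested.

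**Figure D4:**
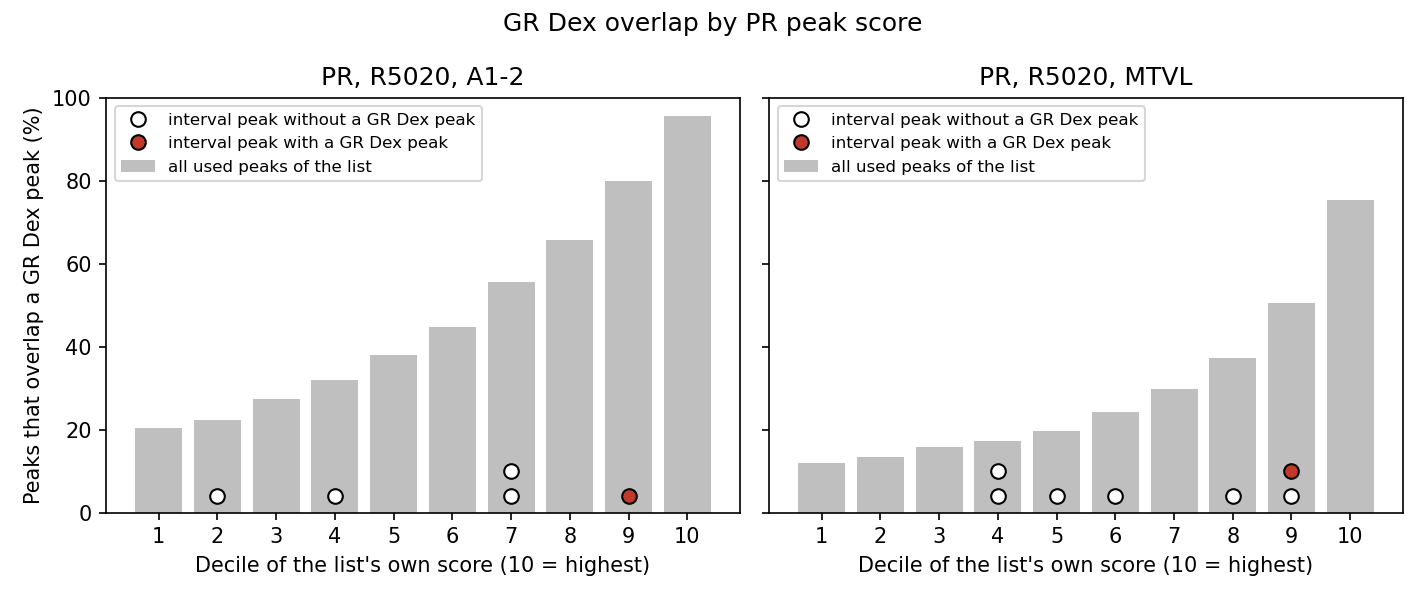
Share of PR peaks that overlap a GR Dex peak (bars, %) in each decile of the list's own score, for PR in A1-2 cells (left) and in MTVL cells (right); circles at the foot of the bars mark the deciles in which the peaks of the stretch fall, filled where that peak has a GR Dex peak and at arbitrary height. In A1-2 cells the bars go from 20.5% to 95.6%, and 1 of the 5 circles, in decile 9, is filled.

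The stretch had fewer GR peaks than the median tile with its number of PR peaks, without lying outside the range of other tiles. Its count of 1 depends on where the stretch was cut, since the next GR Dex peak began 12.0 kb beyond the downstream limit. Of the 576 tiles with exactly 5 A1-2 PR peaks the median tile had 3 GR Dex peaks (quartiles 2 and 4), and 18.9% had at most 1. Of the 510 tiles with exactly 7 MTVL PR peaks the median was 2 (quartiles 1 and 4), and 27.6% had at most 1. From chr16:56446108 to 56715768, a length of 270 kb that includes MT2A, no GR Dex peak was called, while that length held 5 PR peaks of A1-2 cells and 7 of MTVL cells, of which 1 in each line lay before the stretch. The 4 A1-2 PR peaks around MT2A were 71.0 to 77.7 kb from the nearest GR Dex peak. Over the whole lists 20.0% of A1-2 PR peaks and 33.1% of MTVL PR peaks had none within 50 kb.

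Peaks just outside the stretch were of both receptors. On the downstream side the next site was 11.7 kb beyond the limit, with PR in A1-2 cells at chr16:56781738-56782694 (score 865.31), PR in MTVL cells at chr16:56781769-56782658 (526.67) and GR after Dex at chr16:56781978-56782397, whose score of 100.06 was just over the lowest deposited value of 100. On the upstream side PR was called 82.8 kb before the limit, at chr16:56456755-56457229 in A1-2 cells (115.59) and at chr16:56456602-56457223 in MTVL cells (252.37), and GR after Dex 93.9 kb before it at chr16:56445552-56446107 (148.04).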

How the data were processed

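ChIP-seq peak lists of 8 libraries of T47D A1-2 and MTVL cells were used, grouped by their titles. Alignment with Bowtie 1.1.1, peak calling with MACS 1.4.2, use of bedtools and the hg19 build are per the submitters' processing notes. Control library, settings, read depth and read filters: not given in the sources used here. The deposited score, the authors' own value per peak, was read as -10 times the log10 of p, since the lowest is 100. Scores from 3100 up were counted as a possible ceiling, but ranks and deciles used the scores as deposited. Each list was called by the authors on 1 library.

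Peaks on chromosomes 1 to 22 and X were used, without those that overlapped an A1-2 input peak. Positions count from 1. Every used peak in the stretch is named, by rule. Overlap meant at least 1 bp, intervals are exact 95% intervals, and no p-value was computed. Tiles were counted by peak midpoints. RefSeq promoter windows (GRCh38.p14) were searched over the 250 bases before the start. The members and lists were chosen with earlier results of these data known. The overlap step was tested on simulated data against bedtools 2.31.1. Python 3.11.15, numpy 2.4.6, pandas 2.3.3, scipy 1.17.1 and matplotlib 3.10.9 were used. The planned placing of genes, and sequence under the peaks, needed hg19 references, and the protein comparison needed protein sequences; these were not run. Alternatives were a score of at least 200, input peaks kept, no flanks, merging across 500 bp, stricter overlap, equal list lengths, and ranks on chromosome 16 or over all deposited peaks.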

Additional observations from a re-analysis of the deposited data

How the results depend on the processing

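Of 56 values under other settings (those of the run apart), 49 stayed within 1.5 times of the counts given, or within the 95% interval of a percentile. Part of the 49 could not have moved. The lists without a peak in the stretch had 0 deposited there, so each of their counts had to stay at 0. Keeping peaks at input peaks could change no count in the stretch either, since no deposited peak of the stretch had been left out. Where every list was restricted to scores from 200 up, the stretch held 3 A1-2 PR peaks, and 2 sites had PR of both lines without GR. Merging across gaps of at most 500 bp joined the promoter site to its upstream neighbour. This left 6 sites, of which 3 had PR of both lines without GR. With lists cut by score to 18415 peaks, 2 of 3 A1-2 PR peaks lay at an MTVL peak and 2 of 3 MTVL peaks at an A1-2 peak: the promoter site left the MTVL list and the site 1.25 kb upstream left the A1-2 list. Ranked on chromosome 16 only, the site at 73.7 kb stood above 76.8% of GR Dex, 85.7% of A1-2 PR and 83.0% of MTVL PR peaks. The gap that defines a run was varied after seeing the data: with gaps of at most 2 kb the run at MT2A had 3 peaks in each line, and with 10 kb it had 4 and 5, as with 5 kb. Keeping peaks at input peaks, taking off the flanks, and asking for 50% overlap or midpoints within 200 bp changed none of the counts they were applied to. Unknown depth limits every absence of a peak. No paired analysis was possible because each condition had 1 library and no result came from a test.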
